A study of Mus musculus with 2 samples.

Results

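The clustered protocadherins were examined in the forebrain of embryonic mice: every gene whose symbol places it in the Pcdh alpha, Pcdh beta or Pcdh gamma cluster. The rule found 58 genes among the 43346 mouse genes in the gene tables, with 14 in the alpha cluster, 22 in the beta cluster and 22 in the gamma cluster. All 58 were kept, whatever their level. For each gene and transcript the tables give an estimated read count, a level corrected for transcript length (TPM, transcripts per 1e6 transcripts), a posterior mean of that level, an interval for it and the spread of the read estimate.

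The series holds 1 group, forebrain of mixed sex from the B6NCrl strain at embryonic day 15.5, with no treatment and no control group. Replicate 1 was a pool of 78 embryos and replicate 2 a pool of 62, each sequenced as 1 library from 10 ng of total RNA longer than 200 nucleotides with spike-in RNA added. Values are given for both libraries and then as the mean ± SD with n = 2. A test between groups was not possible, because even an exact sign-flip test of 2 libraries cannot give a two-sided p under 0.5, so differences are set against the spread between the libraries.

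Clustered protocadherins are adhesion proteins of the cadherin superfamily that neurons use to tell their own branches from those of other cells. Each alpha or gamma gene has its own promoter and its own large variable exon, which encodes the extracellular part, the membrane span and a short cytoplasmic stretch; splicing then joins that exon to constant exons that all genes of the cluster share. Beta genes are made of a single coding exon and have no constant exons. A neuron switches on a small set of the alternate promoters, with a large part left to chance and with the help of CTCF and cohesin, whereas the C-type genes at the ends of the alpha and gamma clusters (Pcdhac1, Pcdhac2, Pcdhgc3, Pcdhgc4 and Pcdhgc5) follow rules of their own. In bulk tissue, a gene used by few cells and a gene used weakly by many cells cannot be told apart.

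The estimated counts summed to 38720511 reads in replicate 1 and 35103430 in replicate 2, of which the members took 34847 and 32138, or 0.0900% and 0.0916%. The label was checked against marker genes: all 5 forebrain regulators (Emx1, Lhx2, Dlx1, Dlx2 and Neurod6) lay between 56.0 and 389 TPM, and none of 5 regulators of more posterior regions (En1, En2, Hoxb2, Hoxb3 and Hoxa5) passed 0.0600 TPM. Neuronal markers lay between 292 and 1509 TPM and radial glia markers between 98.5 and 1274 TPM. Globin genes summed to 11296 and 10350 TPM, endothelial markers to 94.5 and 101 TPM, and choroid plexus markers to 806 and 356 TPM, so that the last stood higher in replicate 1. Most of the choroid plexus sum was Ttr, at 761.0 and 331.13 TPM. Folr1 and Kcne2 were also higher in replicate 1, whereas Kl was low in both libraries at 0.26 and 0.23 TPM.

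The 3 clusters lie one after the other on mouse chromosome 18 (build mm10, forward strand). The alpha cluster runs from 36930184 to 37187661 (257.5 kb), the beta cluster from 37264938 to 37524479 (259.5 kb) and the gamma cluster from 37661793 to 37841873 (180.1 kb). The alpha constant exons are 59, 89 and 2712 bases long and start at 37156155, and the gamma constant exons are 59, 89 and 1971 bases long and start at 37825021. No sequence of these loci is printed here.

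This layout set how surely a read could be given to 1 gene. Constant exons made up 48.6% to 54.9% of the longest transcript with a whole variable exon in alpha members and 41.7% to 45.9% in gamma members. Of all 100-base windows along that transcript, the share found on the same strand in no other annotated gene had a median of 44.2% in alpha, 55.9% in gamma and 99.8% in beta. Reads from the remaining windows were divided between genes by the authors' estimate. Its deposited spread, relative to the count, had a median of 4.01% in alpha, 3.43% in gamma and 0.216% in beta in replicate 1. On the same strand, beta values therefore rest almost wholly on reads of their own, and alpha and gamma values rest in part on the division. Without strand, the share was lower for some members, as given below with the antisense genes.

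Most members were on in this tissue, at low levels. In both libraries, 51 of the 58 members (87.9%) reached 1 TPM, beside 60.6% of protein-coding genes and 34.4% of all mouse genes in the tables. By cluster these were 13 of 14 alpha, 17 of 22 beta and 21 of 22 gamma members. Only 5 members were above 10 TPM in both libraries: Pcdhgc4, Pcdhgc3, Pcdhga11, Pcdhgb6 and Pcdhga7. The median of protein-coding genes at 1 TPM or more was 20.9 TPM, and 2 members had a mean above it. The 7 members short of the level were Pcdha1, Pcdhb1, Pcdhb2, Pcdhb13, Pcdhb14, Pcdhb15 and Pcdhgb8.

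**Figure D1:**
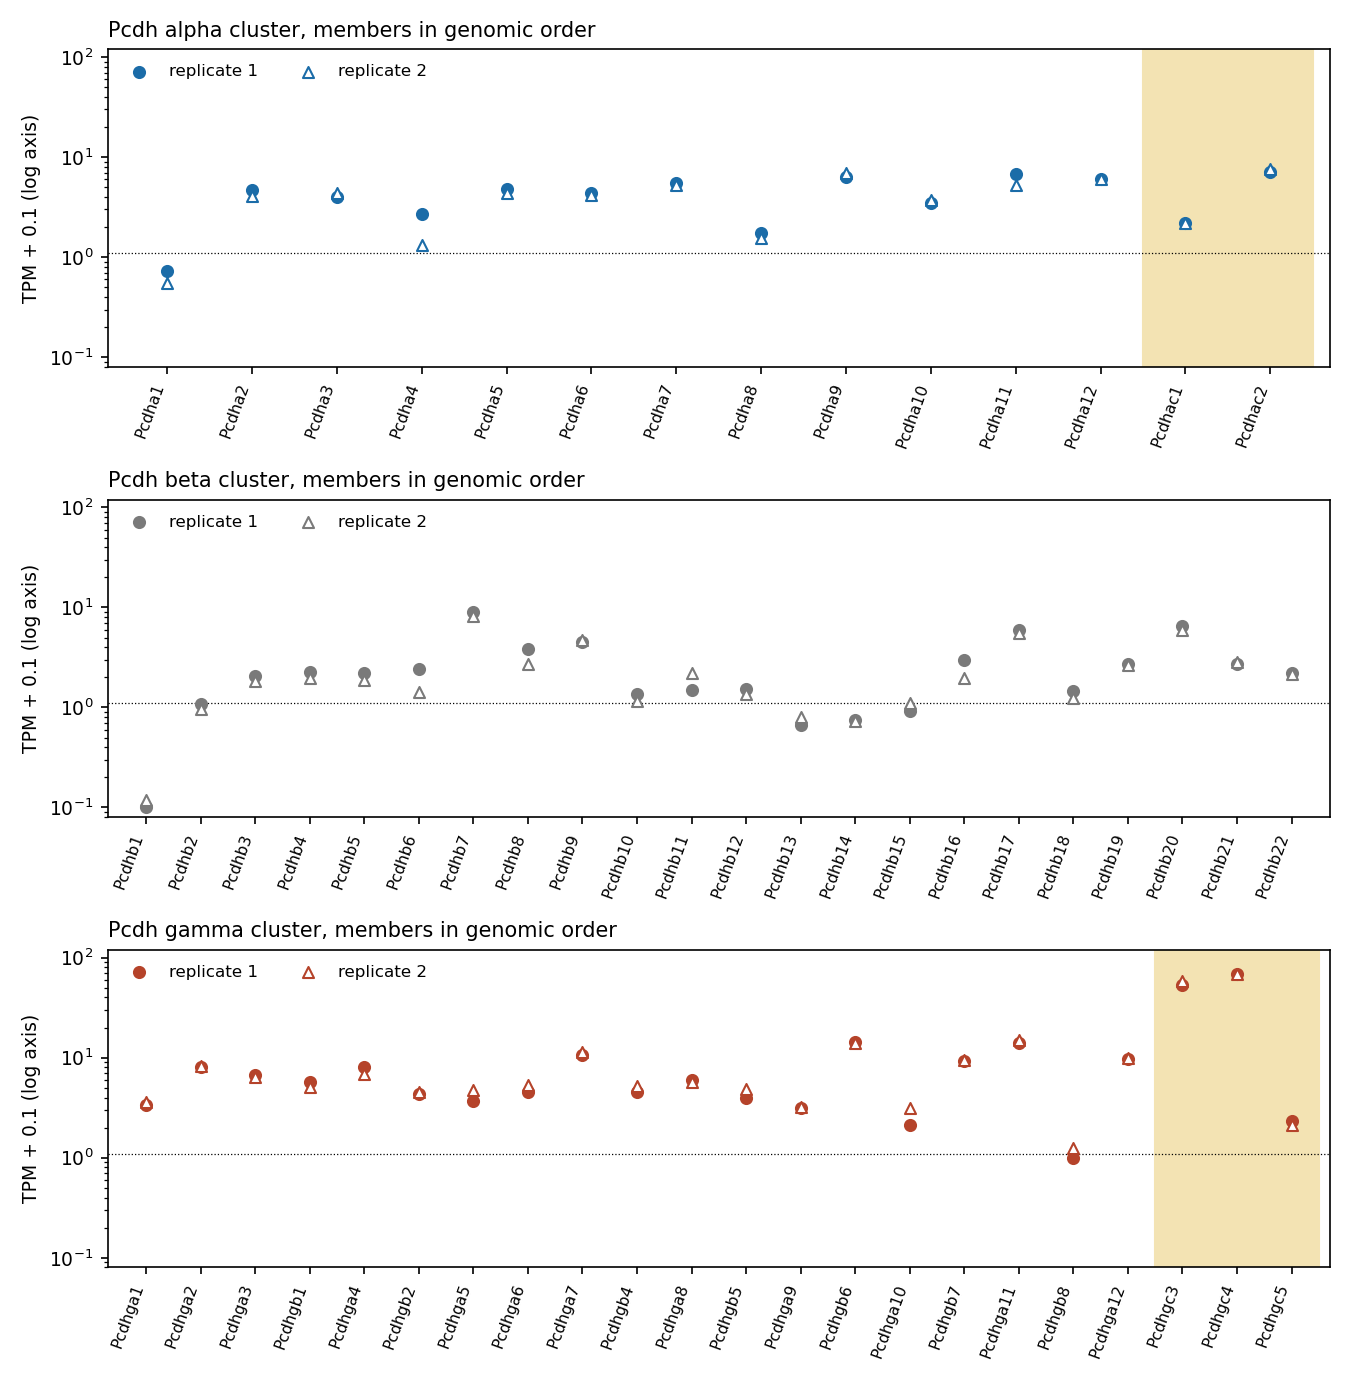
Level of each of the 58 members in genomic order, one panel per cluster, as TPM + 0.1 on a log axis; filled circles are replicate 1, open triangles replicate 2, shading marks the C-type genes and the dotted line is 1 TPM. Pcdhgc3 and Pcdhgc4 stand above all other members in both libraries and Pcdhb1 stands below all others.

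The gamma cluster gave most of the members' RNA. Its levels summed to 246 and 255 TPM (250 ± 6.24, n = 2), against 59.3 and 56.1 TPM for alpha (57.7 ± 2.23) and 56.6 and 51.5 TPM for beta (54.1 ± 3.65). Gamma thus held 69.1% of the members' TPM, alpha 15.9% and beta 14.9%. Gamma was above alpha and beta in both libraries, and alpha was above beta by less in each. Over transcripts with the whole variable exon and, in alpha and gamma, the constant exons, the gamma sum was 163 TPM and alpha and beta were at 51.8 TPM each, so that gamma held 61.2%. Leaving out 1 gamma transcript, Pcdhgc4-203, gave a gamma sum of 204 TPM and a share of 64.6%.

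A typical gene of each cluster differed less than the sums did. The median member stood at 4.48 and 4.18 TPM in alpha (4.26 TPM over the mean levels), at 2.11 and 1.83 TPM in beta (1.91) and at 5.75 and 5.41 TPM in gamma (5.51). On the log2(TPM + 0.1) scale the alpha median was 1.12 ± 0.07 above beta, the gamma median was 1.48 ± 0.07 above beta, and the gamma median was 0.36 ± 0.01 above alpha (SD, n = 2). All 3 differences were larger than the spread between the libraries. The 0.36 was also the one that moved most with the summary, reaching 0.90 when means over members replaced medians.

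Among the alternate alpha genes, those outside the C-type, the highest by mean level was Pcdha9. It was at 6.29 TPM in replicate 1 and 6.78 in replicate 2 (6.54 ± 0.346), followed by Pcdha12 at 5.95 and 5.93 TPM, Pcdha11 at 6.62 and 5.21 TPM and Pcdha7 at 5.43 and 5.16 TPM. Pcdha9 was above Pcdha12 and Pcdha7 in both libraries, whereas Pcdha11 was above all 3 in replicate 1 and below Pcdha9 and Pcdha12 in replicate 2, so its place among them was not resolved. The lowest was Pcdha1, the first gene of the cluster, at 0.63 and 0.45 TPM from 71.6 and 47.1 estimated reads. Pcdha8 was next at 1.66 and 1.46 TPM, and apart from Pcdha4 the other alternate alpha genes had means between 3.48 and 4.53 TPM.

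Pcdha4 was the member whose level was least settled. It stood at 2.63 TPM in replicate 1 and 1.21 TPM in replicate 2, and the deposited intervals were 1.84 to 4.26 and 0.875 to 2.59 TPM, which overlap. Only 3.5% of the windows of its longest transcript were its own. The rest of its variable exon is also annotated in Gm42416, a gene model on the same strand that joins Pcdha4 variable sequence to gamma constant exons far downstream (36952741 to 37840200).

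Gm42416 moved the other way, from 1.95 TPM in replicate 1 to 3.32 TPM in replicate 2. The sum of both genes was 4.58 and 4.53 TPM (4.55 ± 0.0354), a level inside the range of the other alternate alpha genes. Before scaling for depth, the reads of both genes summed to 412 in replicate 1 and 319 in replicate 2. The sum was thus close between libraries in TPM but less so in reads. How that sum divides between the alpha gene and the joined model was not resolved by these tables. A pair of similar joined models, Gm37013 and Gm37388, which start in the Pcdha6 and Pcdha7 regions, was listed at 0 in both libraries.

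The beta genes had the lowest median and the lowest single gene. Pcdhb7 was highest at 8.87 and 8.13 TPM (8.50 ± 0.523) from 706 and 595 estimated reads. Pcdhb20 followed at 6.46 and 5.84 TPM, Pcdhb17 at 5.87 and 5.47 TPM and Pcdhb9 at 4.45 and 4.60 TPM. Together these 4 genes gave 46.0% of the beta TPM. Pcdhb7 was above the other beta genes in both libraries, and Pcdhb9 was below Pcdhb17 and Pcdhb20 in both.

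Pcdhb1, the first gene of the beta cluster, was the lowest of all members. No read was assigned to it in replicate 1 and 1 read in replicate 2 (0.02 TPM). A count of 0 allows up to 0.0515 TPM in replicate 1, taking 3 reads as the limit and covering counting error only. The next lowest beta genes were Pcdhb13 at 0.57 and 0.71 TPM, from 48 and 55 reads, and Pcdhb14 at 0.65 and 0.64 TPM. Pcdhb13, Pcdhb14 and Pcdhb15 are neighbours, and all 3 had means under 1 TPM.

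In the gamma cluster the alternate genes are of an A and a B kind that are interleaved along the chromosome. Pcdhga11 was at 13.94 and 14.87 TPM (14.4 ± 0.658) and Pcdhgb6 at 14.25 and 13.89 TPM (14.1 ± 0.255), and the values of this pair overlapped. Pcdhga7 followed at 10.60 and 11.24 TPM and Pcdhga12 at 9.53 and 9.78 TPM, then Pcdhgb7 at 9.25 and 9.41 TPM. This order held in both libraries, but the deposited intervals of Pcdhga12 and Pcdhgb7 overlapped in both. In replicate 1 those of Pcdhga7 and Pcdhga12 overlapped as well (9.60 to 11.2 and 8.64 to 9.99 TPM). Over transcripts with the whole variable exon and the constant exons, Pcdhga12 had a mean of 6.10 TPM, below Pcdhgb7 at 9.33 TPM. The lowest was Pcdhgb8, annotated as a polymorphic pseudogene, at 0.90 and 1.16 TPM, and then Pcdhga10 at 2.03 and 3.01 TPM.

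The A and B kinds overlapped broadly. The 12 A genes ranged from 2.52 to 14.4 TPM with a median of 6.10, and the 7 B genes from 1.03 to 14.1 TPM with a median of 4.80. The B median was lower by 0.34 ± 0.16 on the log2 scale, which is small beside the range within each kind.

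The C-type genes were the most uneven set of the family. In the alpha cluster, Pcdhac2 (ENSMUSG00000102697), which serotonin neurons use to space their axons, was the highest alpha gene at 7.07 and 7.54 TPM (7.30 ± 0.332). Serotonin neuron markers (Tph2, Slc6a4 and Fev) were at 0.18 to 0.425 TPM in the same tissue, with Fev at 0 in replicate 2. Pcdhac1 (ENSMUSG00000103255) was at 2.10 TPM in both libraries, below 9 of the 12 alternate alpha genes in mean level. The median of these 2 genes differed from that of the 12 alternate alpha genes by -0.11 ± 0.10 on the log2 scale, which is about the spread between libraries, and the difference was 0.20 with means over members and 0.07 without length correction.

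In the gamma cluster the C-type held both the highest genes and one of the lowest. Pcdhgc4 (ENSMUSG00000023036), needed for the survival of forebrain interneurons, was at 68.71 and 68.82 TPM (68.8 ± 0.0778). Pcdhgc3 (ENSMUSG00000102918), which promotes dendrite branching of cortical neurons, was at 53.78 and 58.09 TPM (55.9 ± 3.05). Pcdhgc5 (ENSMUSG00000102543), a gene known for its rise after birth, was at 2.24 and 2.01 TPM (2.12 ± 0.163). Pcdhgc3 and Pcdhgc4 lay above every other member in both libraries, and Pcdhgc5 lay below 18 of the 19 alternate gamma genes in mean level, all but Pcdhgb8. The order of Pcdhgc5 and Pcdhga10 was not resolved. Pcdhga10 was lower in replicate 1, at 2.03 TPM, and the mean of the posterior mean levels was 2.77 TPM for Pcdhgc5 and 2.45 TPM for Pcdhga10.

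As a group the 3 gamma C-type genes gave 50.7% and 50.6% of the gamma TPM. Their median was 3.38 ± 0.16 above that of the 19 alternate gamma genes on the log2 scale. With 3 genes the median is a single gene, Pcdhgc3, so the value does not describe Pcdhgc5. With all 5 C-type genes set against all 53 other members, the difference of medians was 0.83 from the mean levels and 0.90 and 0.89 within the libraries. Which transcripts are counted decided the gamma value, as the transcript tables show.

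The transcripts fell into 3 classes by their annotated exons. Transcripts with the whole variable exon (at least 90% of it) and the constant exons held 89.7% ± 2.46 of the alpha TPM but 65.3% ± 1.99 of the gamma TPM. Transcripts with constant exons and only part of the variable exon held 2.02% ± 0.584 in alpha and 23.1% ± 2.51 in gamma. The rest, which keep an intron or lack constant exons, held 8.24% ± 1.88 in alpha and 11.6% ± 0.522 in gamma. Beta genes had 95.9% ± 2.00 of their TPM in transcripts with the whole exon.

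**Figure D2:**
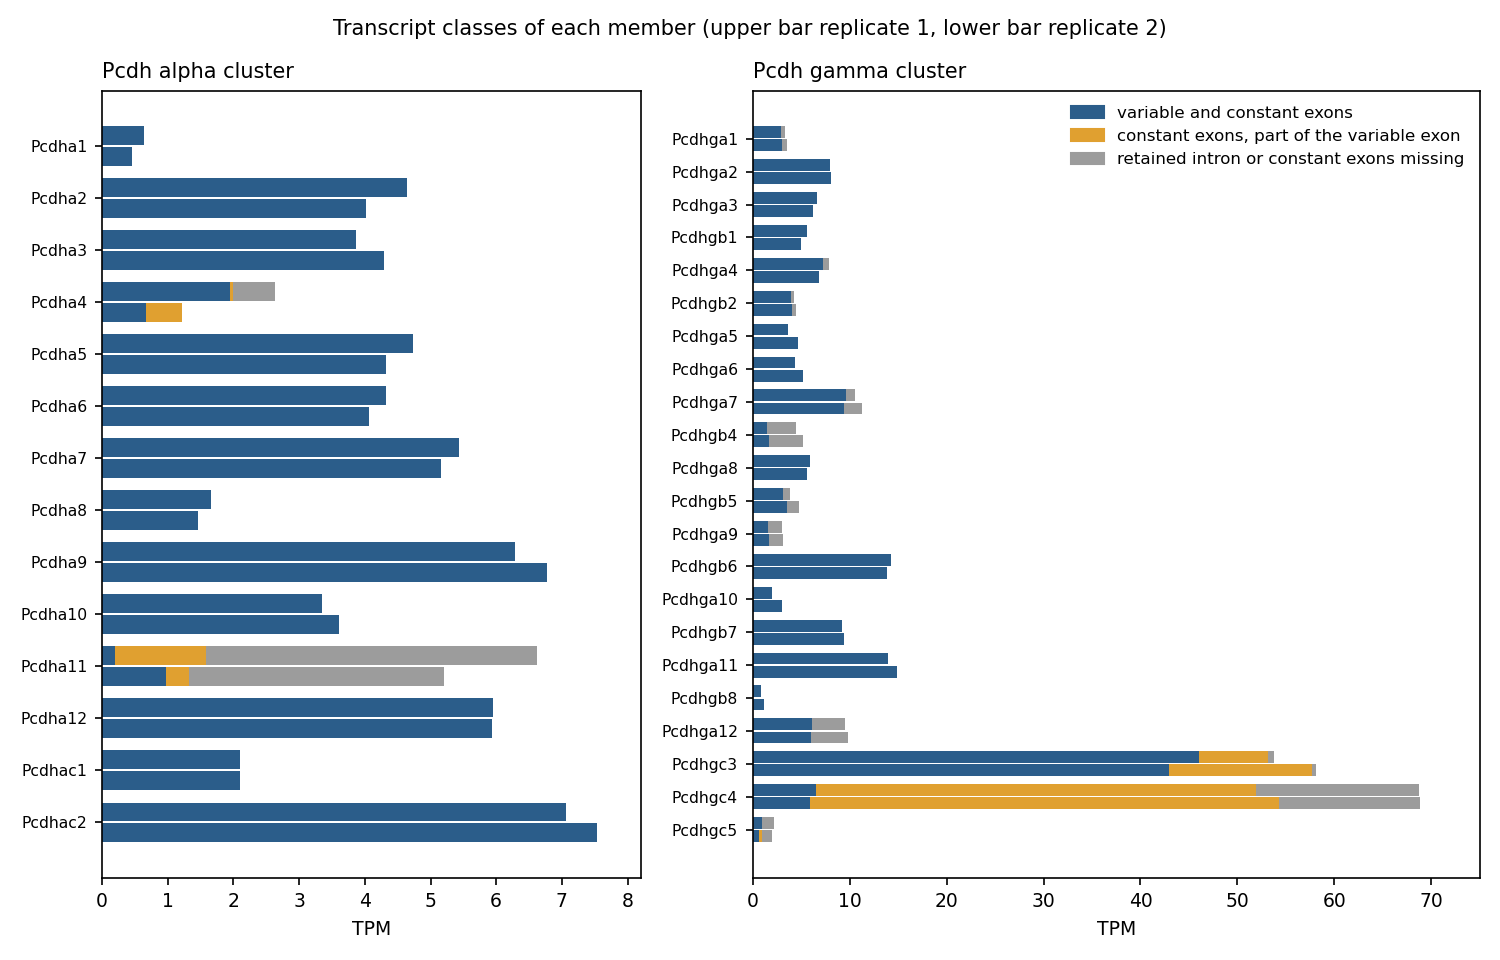
TPM of each alpha and gamma member divided by transcript class, with replicate 1 as the upper and replicate 2 as the lower bar. Most members consist of transcripts with the whole variable exon and the constant exons (blue), whereas Pcdhgc4 consists mainly of a transcript with part of the variable exon (orange). Pcdha11, Pcdhgb4 and Pcdhgc5 consist mainly of transcripts that keep an intron or lack constant exons (grey).

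Pcdhgc4 was the clearest case. Its transcript Pcdhgc4-203 was given 45.44 and 48.40 TPM, or 66.14% and 70.33% of the gene. That model is 2272 bases long, of which 93.3% are constant exons and 153 bases are variable. Of its windows, 6.9% are found in no other gene, a share that does not separate it from other transcripts of Pcdhgc4. A model that keeps an intron and holds no constant exon, Pcdhgc4-202, had 16.74 and 14.48 TPM. The whole transcript Pcdhgc4-201, which encodes the adhesion protein, had 6.52 and 5.94 TPM (6.23 ± 0.410).

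Pcdhgc3 rested mainly on its whole transcript. Pcdhgc3-201 had 46.01 and 42.90 TPM (44.5 ± 2.20). A transcript annotated for nonsense-mediated decay, Pcdhgc3-202, had 7.11 and 14.79 TPM, so the gain of the gene in replicate 2 lay in that transcript. Pcdhgc5-201 had 0.96 and 0.65 TPM, with the remainder of the gene mostly in an intron-keeping model, Pcdhgc5-202, at 1.24 and 1.02 TPM.

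Over whole transcripts alone, the order of the gamma genes changed. Pcdhgc3 was highest, ahead of Pcdhga11 and Pcdhgb6, Pcdhgc4 was at rank 9 in place of rank 1, and Pcdhgc5 was last of the 22. The C-type share of the gamma TPM was then 32.6% and 30.4%, and the log2 difference of medians between C-type and alternate gamma genes was 0.23 in place of 3.38. Leaving out Pcdhgc4-203 alone gave 2.03. In these counts the median C-type gene was Pcdhgc4, at 6.23 and 21.8 TPM, in place of Pcdhgc3. Whether reads of other gamma transcripts were assigned to Pcdhgc4-203 through the constant exons was not tested. Pcdhgc3 was above the alternate gamma genes under either count.

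Several alternate genes also changed with the class. Pcdha11 had 6.62 and 5.21 TPM in all but 0.20 and 0.97 TPM in whole transcripts, because Pcdha11-205 and Pcdha11-206, which keep introns, held 3.49 and 2.90 TPM and 1.55 and 0.98 TPM. Pcdhgb4 had 1.48 and 1.71 TPM in its whole transcript and 2.96 and 3.44 TPM in Pcdhgb4-201, a model with no constant exon. Pcdhga9 and Pcdhga12 likewise had 46.58% and 35.58% of their TPM in an intron-keeping model in replicate 1, and 47.29% and 38.01% in replicate 2. Transcripts of the other alternate gamma genes were mostly whole.

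Some alpha transcripts splice out an inner part of the last constant exon. Alpha transcripts with the last constant exon unspliced held 78.0% and 83.9% of the alpha TPM, and those with it spliced held 12.4% and 9.16%. The annotation gives the spliced form for 5 genes only: Pcdha1, Pcdha2, Pcdha4, Pcdha6 and Pcdha11. For Pcdha6 the forms changed places between libraries, with 3.10 and 0.25 TPM for the spliced Pcdha6-201 and 1.22 and 3.82 TPM for the unspliced Pcdha6-202, while the gene held at 4.32 and 4.07 TPM. The gene level was steadier than its division into forms.

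Position along the cluster was related to level weakly. Over the 14 alpha genes, log2 level and order from the first gene had a Spearman correlation of 0.49 (Pearson 0.46), and 0.56 over the 12 alternate genes. The first 6 alternate alpha genes had a median of 4.13 TPM and the last 6 one of 5.61 TPM, with ranges of 0.540 to 4.53 and 1.56 to 6.54 TPM that overlap. Over whole transcripts the Spearman correlation was 0.33 for the 14 genes and 0.29 for the 12 alternate genes. Pcdha11 is the gene that moved most between the counts. These points share both libraries and the alpha constant exons, so no p is given.

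The beta and gamma clusters showed less. The 22 beta genes had a Spearman correlation of 0.29 with order, and 0.18 without Pcdhb1, which is both first and lowest. Over whole transcripts these were 0.13 and 0.00. Pcdhb22, the last beta gene, moved most between the counts, from a mean of 2.08 TPM to 0.640 TPM, since Pcdhb22-201 covers only part of the annotated exon. The 22 gamma genes had a correlation of 0.16 with order, and 0.10 over the 19 alternate genes. Over whole transcripts these were 0.00 and -0.01. The first and last 9 alternate gamma genes had medians of 5.29 and 5.74 TPM. Being close to the constant exons was also no guide among the C-type genes, since Pcdhgc4 lies 9.9 kb from the first gamma constant exon and Pcdhgc5 lies 5.5 kb from it. In the alpha cluster, Pcdhac2 at 12.7 kb was above Pcdhac1 at 66.1 kb.

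**Figure D3:**
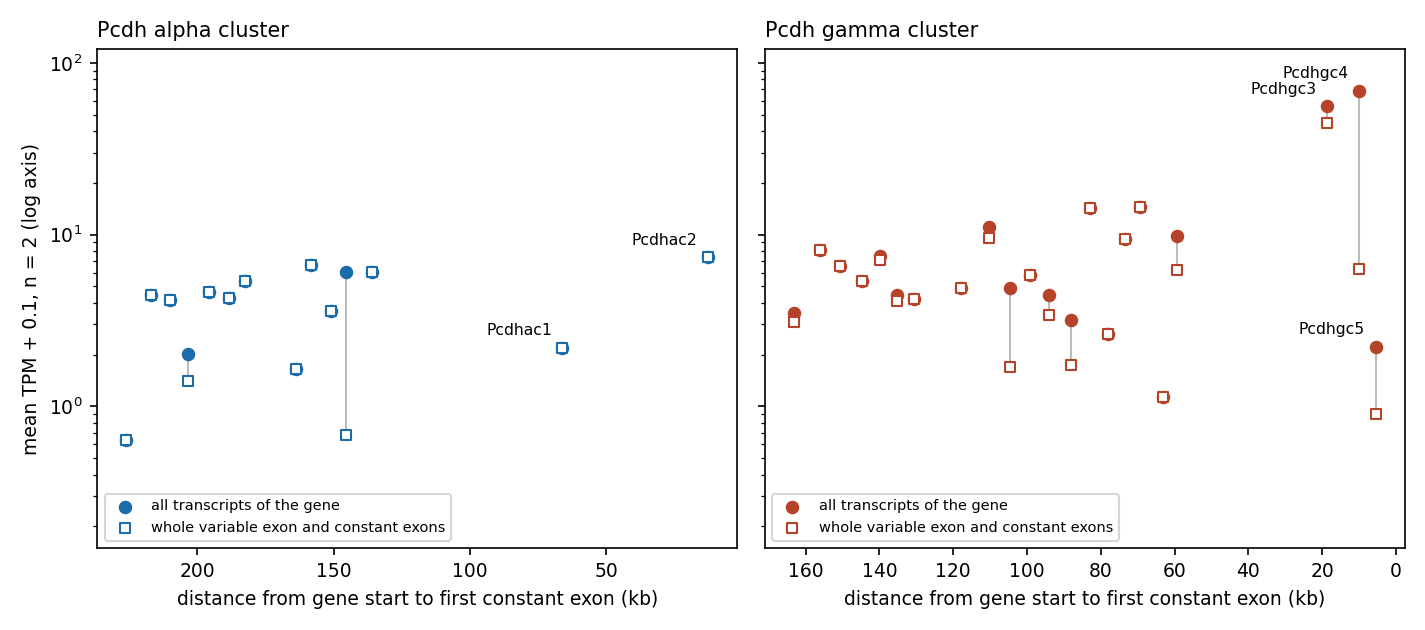
Mean TPM + 0.1 (n = 2, log axis) of each alpha and gamma member against the distance in kb from its gene start to the first constant exon; filled circles count all transcripts of the gene and open squares only transcripts with the whole variable exon and the constant exons. Pcdhgc4 drops from 68.8 to 6.23 TPM between the counts and Pcdha11 from 5.92 to 0.585 TPM, while Pcdhgc3 is above all alternate gamma genes under either count.

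Between the outermost members the annotation holds 27 other genes, and 6 of them were at 1 TPM or more in both libraries. Taf7, a subunit of the general transcription factor TFIID that sits between the beta and gamma clusters, was at 15.18 and 14.61 TPM, above every alternate protocadherin of the alpha and beta clusters. Slc25a2, a mitochondrial carrier next to it, was at 0.61 and 0.62 TPM. The RNA 3222401L13Rik, just ahead of Pcdhga1, was at 1.99 and 1.61 TPM. Gm42416, described above, was another of the 6.

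Genes on the opposite strand lay over several members. BC037039, antisense to Pcdhgc3, was at 8.83 and 8.53 TPM, and Gm26672, antisense to Pcdhga10, Pcdhgb7, Pcdhga11 and Pcdhga12, was at 8.04 and 7.54 TPM. Gm10544, in the alpha constant region, was at 4.59 and 5.28 TPM. Gm10545, antisense to Pcdha11 and Pcdha12, was at 1.17 and 0.83 TPM. No source used here says whether the authors' estimate used strand. Without strand, the share of windows found only in Pcdhga10 falls from 56.4% to 2.1%, in Pcdha11 from 41.6% to 2.9%, in Pcdhgc3 from 55.9% to 25.1%, in Pcdhga11 from 56.5% to 29.0% and in the beta gene Pcdhb12 from 99.5% to 37.7%, so the reads of these members and of their antisense partners are uncertain. In replicate 1 the deposited spread relative to the count was 14.2% for Pcdhga10 and 2.21% for Pcdhb12, the largest of the gamma and beta clusters. It was 5.02% for Pcdha11, and 2.34% for Pcdhga11 and 1.43% for Pcdhgc3, both below the gamma median of 3.43%. Whether the use of strand had a part in these spreads was not tested. The remaining loci in the clusters had means of 1.25 TPM or less.

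The pools gave nearly the same profile. Log2 levels of the 58 members in the libraries had a Pearson correlation of 0.98 and a Spearman correlation of 0.97 across genes, which are not independent replicates. After scaling by the trimmed mean of M-values (TMM), the size of the log2 ratio of replicate 1 to replicate 2 had a median of 0.12 over the 57 members with 10 or more reads in all, beside 0.11 over all 19165 such genes. Of the 57, 1 was apart by 2-fold or more, Pcdha4 at 1.07, whereas 4.74% of all such genes were. Members were thus about as steady between pools as other genes.

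Counting error did not cover every difference. The 95% exact binomial interval of the read ratio left out 0 in 11 of the 58 members, 1 in alpha, 2 in beta and 8 in gamma. Over the members with 10 or more reads that is 19.3%, beside 25.7% of all 19165 such genes, so the count says nothing particular about the members. Pcdhb16 had 345 and 208 reads, a log2 ratio of 0.59 with an interval of 0.34 to 0.84, and every window of Pcdhb16 is its own. Pcdhb11 had 141 and 195 reads and a ratio of -0.61 (-0.93 to -0.29). Pcdhga10 had 220 and 299 reads and a ratio of -0.58 (-0.84 to -0.33), with the antisense gene over it. These intervals cover counting error only, not the division of shared reads. The choroid plexus markers Ttr, Folr1 and Kcne2 were also higher in replicate 1, and their part in these ratios was not tested.

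**Figure D4:**
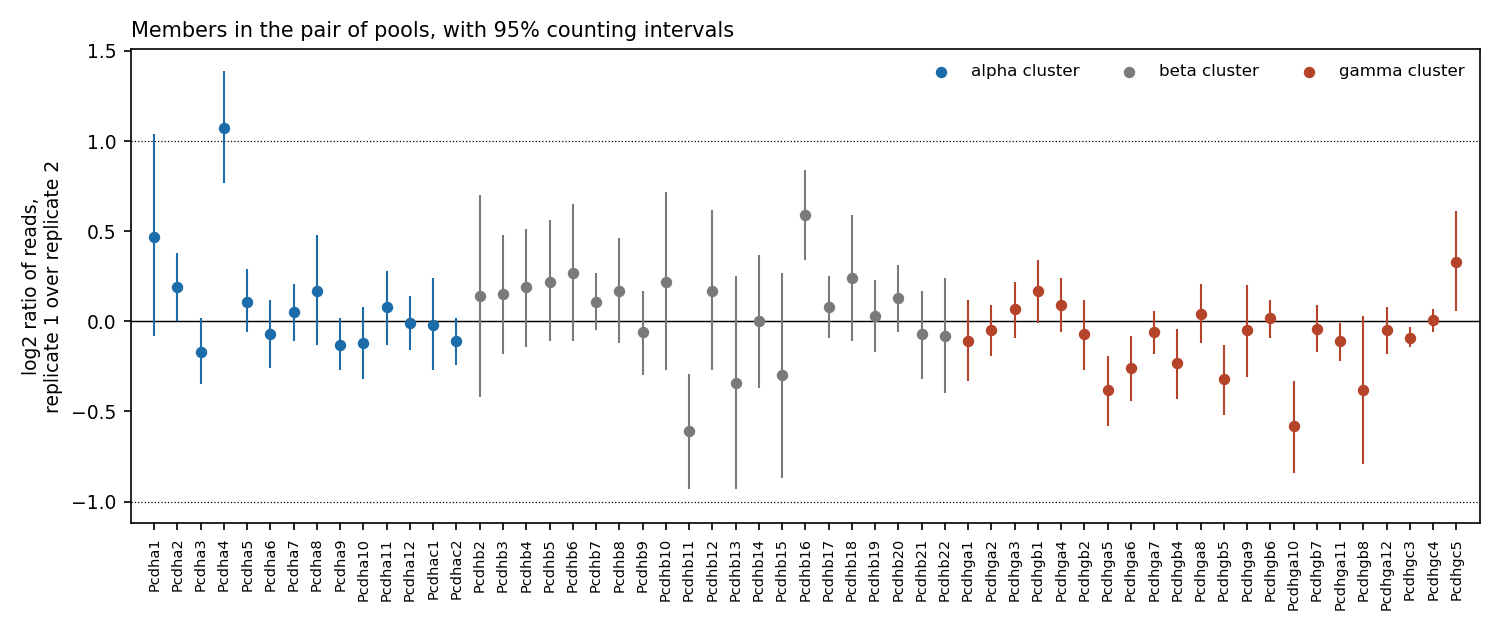
Log2 ratio of TMM-scaled reads, replicate 1 over replicate 2, for the 57 members with 10 or more reads in genomic order, with lines for the 95% counting interval and dotted lines at 2-fold. Pcdha4 alone lies past 2-fold; Pcdhb16 is higher in replicate 1, and Pcdhb11 and Pcdhga10 are higher in replicate 2.

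The listed genes that are related to the clustered protocadherins or act with them were all present. The 10 delta protocadherins, relatives encoded elsewhere in the genome by genes of their own, all passed 1 TPM, with a median of 12.4 TPM. Pcdh9 led at 115.11 and 107.92 TPM, then Pcdh8 at 48.08 and 45.98, Pcdh18 at 18.82 and 18.86 and Pcdh11x at 15.15 and 14.71 TPM, and Pcdh20 was lowest at 5.75 and 5.28 TPM. The lowest delta protocadherin was thus close to the median clustered gamma gene.

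CTCF and cohesin form the loops that bring a promoter of the clusters to its enhancer. All 11 genes of that list were on, with a median of 31.4 TPM. Ctcf, the DNA-binding factor, was highest at 123.89 and 121.62 TPM, followed by the cohesin ring subunits Smc1a at 86.79 and 84.48 TPM and Smc3 at 60.81 and 59.88 TPM and by the loader subunit Mau2 at 54.08 and 52.06 TPM. The other loader subunit, Nipbl, was lowest at 18.35 and 17.48 TPM.

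All 7 silencing genes were on as well, with a median of 38.9 TPM. Trim28, a corepressor that recruits Setdb1, was at 211.35 and 230.18 TPM, the DNA methyltransferases Dnmt3a and Dnmt1 were at 76.52 and 71.25 TPM and at 59.32 and 62.62 TPM, and the histone methyltransferase Setdb1 was at 37.52 and 40.30 TPM. Dnmt3b, which methylates protocadherin promoters in the early embryo, was lowest at 3.03 and 3.21 TPM. Dnmt3b was below the other 6 genes of the list in both libraries.

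Downstream of the proteins, all 12 cytoplasmic partners and WAVE complex genes passed 1 TPM, with a median of 52.7 TPM. Brk1, a WAVE complex subunit, was at 199.75 and 198.38 TPM, Nckap1 at 86.14 and 80.65, Wasf1 at 71.26 and 70.04 and Cyfip2 at 62.08 and 66.82 TPM. Of the kinases that the constant domains inhibit, Ptk2 (focal adhesion kinase) was at 58.56 and 56.72 TPM and Ptk2b (Pyk2) was lowest of the list at 2.83 and 2.41 TPM. Axin1, a partner of the Pcdhgc3 protein, was at 9.36 and 14.42 TPM. Ptk2b was also the lowest gene of all 5 lists.

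Proteases that cut the proteins at the membrane were all on too, with a median of 51.8 TPM over 5 genes. The gamma-secretase subunits Psenen at 105.82 and 113.18 TPM and Ncstn at 86.25 and 86.97 TPM were highest, followed by the sheddase Adam10 at 52.86 and 50.64 TPM and the gamma-secretase subunit Aph1a at 22.27 and 18.32 TPM. Psen2 was lowest at 11.58 and 8.19 TPM. In all 5 lists together, 45 of 45 genes reached 1 TPM in both libraries, and the shares of all genes that did so are those given above.

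**Figure D5:**
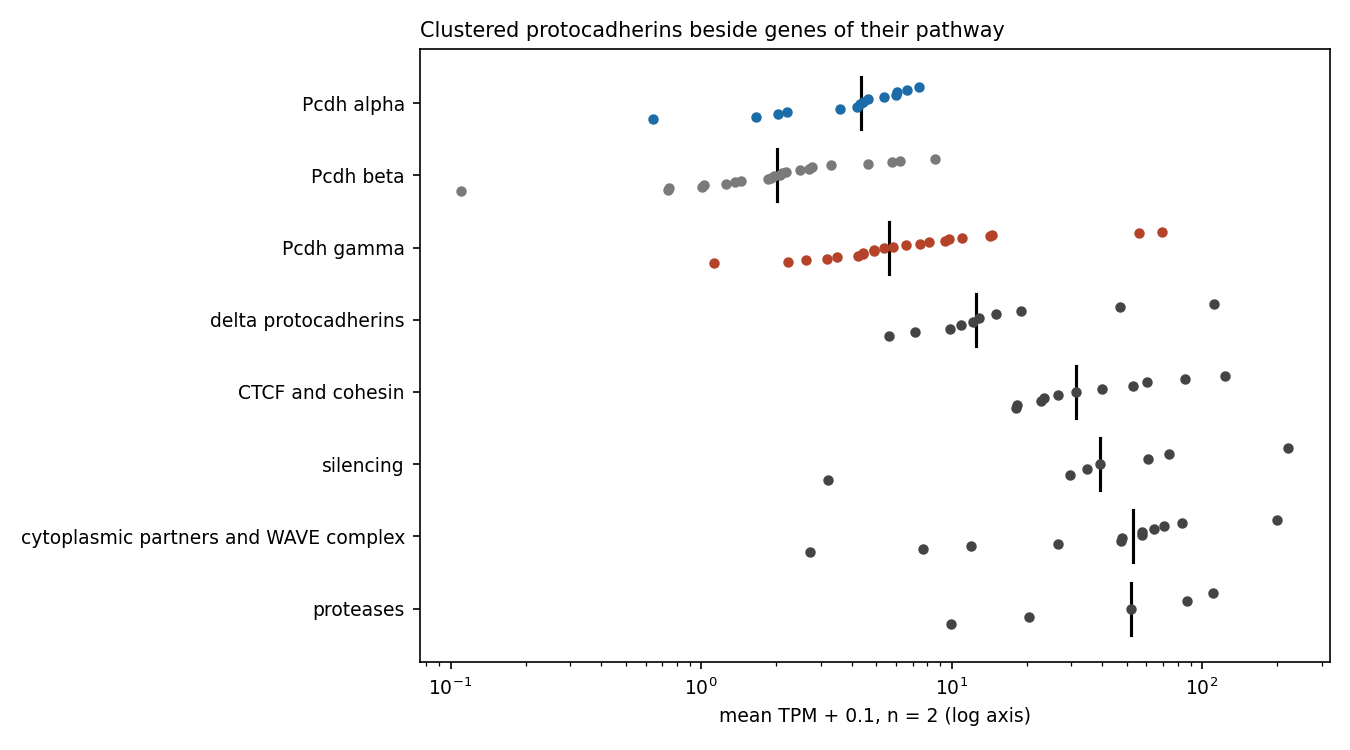
Mean TPM + 0.1 (n = 2, log axis) of each gene in the 3 protocadherin clusters and in the 5 lists of related or partner genes, with a black line at each median. The cluster medians of 4.26, 1.91 and 5.51 TPM lie to the left of all list medians, which run from 12.4 to 52.7 TPM.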

How the data were processed

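Per the file headers, the authors deposited for each library a gene and a transcript table with an expected count (an estimated read count, not always whole), TPM and a posterior mean TPM, and for transcripts the percent of the gene's TPM. Notes deposited with the tables name mm10 and GENCODE M4; no source used here names an aligner, a quantifier or the use of strand. TPM sums over 69691 entries, spike-ins included.

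Members and lists were chosen with earlier results of these data known. Gene IDs were matched to symbols (42462 of 43346 mouse genes). ENSMUSG00000007440 is called Pcdha10, since RefSeq places Pcdha10 within 500 bases of its start. Positions and exons came from GENCODE M21, same build; 88 of 89 annotated member transcripts were in the tables, all with equal length. Constant exons are those shared by 5 or more genes of a cluster. Levels were compared as log2(TPM + 0.1). Pool ratios used rounded counts + 0.5, genes with 10 or more reads and edgeR 4.0.16 TMM scaling, with DESeq2 1.42.0 size factors as an alternative, in R 4.3.3; the code was tested on simulated data with known ratios. Correlations and intervals used scipy 1.17.1. The labels call the replicates separate pools. Named genes: the C-type; the 4 highest and 2 lowest other members of each cluster; members 2-fold apart; the 4 highest and the lowest of each list; loci inside the clusters. A further gene of the protease list is not reported here. Genes outside that rule were named after their values were seen.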

Additional observations from a re-analysis of the deposited data

How the results depend on the processing

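No result has a p-value, so each of the 19 comparisons was recomputed and set against the SD of the libraries: of 123 alternative values, 75 moved by less than that spread (counts by less than 1.5 times), 46 moved by more and 2 changed sign. Settings named as whole transcripts, without Pcdhgc4-203 and without Pcdhb1 were chosen after seeing the data. The alpha over beta difference of 1.12 became 0.85 with a pseudocount of 1 TPM, 0.95 with means over members, 1.02 over members at 1 TPM and 1.53 without length correction. Gamma over beta (1.48) became 1.16, 1.84 and 1.83 with the pseudocount of 1, means and no length correction, 1.56 over whole transcripts, and 1.40 to 1.51 with one library left out. Gamma over alpha (0.36) became 0.31, 0.90 and 0.30 in the same order, 0.40 over members at 1 TPM, 0.41 over coding and over whole transcripts, and 0.35 to 0.36 with one library. The alpha C-type difference of -0.11 changed sign with means (0.20) and without length correction (0.07). The gamma C-type difference of 3.38 became 3.18 with a pseudocount of 1, 1.87 with means, 2.87 without length correction, 3.05 over coding transcripts, 0.23 over whole transcripts and 2.03 without Pcdhgc4-203; the former leaves out the intron-keeping Pcdhgc4-202 as well as Pcdhgc4-203. The difference over all C-type genes (0.83) became 0.84 and 0.71 with pseudocounts of 0.01 and 1, 1.74 with means, 0.74 over members at 1 TPM, 1.20 without length correction, 1.13 and 1.03 over coding and whole transcripts, and 0.89 to 0.90 with one library. The order correlation in alpha (0.49) became 0.45 with posterior means, 0.36 without length correction, 0.31 and 0.33 over coding and whole transcripts and 0.56 without the C-type; in beta (0.29) 0.39 without length correction, 0.13 over whole transcripts and 0.18 without Pcdhb1; in gamma (0.16) 0.08 and 0.00 over coding and whole transcripts, 0.10 without the C-type and 0.17 to 0.18 with one library. The TPM share in transcripts with constant exons (91.8% in alpha, 88.4% in gamma) became 94.4% and 90.2% of reads. Without a filter on low counts, 2 members in place of 1 were 2-fold apart between pools, the added gene being Pcdhb1 with 1 read. The cause of the other shifts was not tested. With 2 pools of 1 stage, the spread is known poorly, and low members rest on few reads: 47.1 for Pcdha1 and 48 for Pcdhb13 in one library.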
